A study of Mus musculus with 16 samples.

Results

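Meningeal and perivascular fibroblasts, the matrix-producing cells of the brain's coverings and of the sheaths of its larger vessels, were taken from single-nucleus RNA sequencing of mouse hippocampus as the nuclei that carried their transcripts. A nucleus was a barcode with at least 500 unique molecular identifiers (UMIs, one per captured transcript), at least 300 genes and at most 5% mitochondrial UMIs. A nucleus was a member when Bnc2, Col1a2, Dcn, Ranbp3l and Slc6a20a together had at least 4 UMIs, and when no more than 1 UMI came from Slc17a7, Gad1 and Gad2 (neurons), from Mog and Mag (oligodendrocytes), from Flt1 (endothelium), from Inpp5d and Csf1r (microglia) or from Otx2os1 and Tmem72 (choroid plexus). This gave 3315 of 147873 nuclei (2.24%), with 53 to 430 in each of 16 libraries. The levels of the transcripts that chose these nuclei are given below as a description only. Of 5118 nuclei with at least 4 UMIs of the chosen genes, 1803 were removed by the limits on other classes. Just inside the threshold, 460 members had 4 UMIs of the chosen genes, a median of 2825 UMIs in all, and a UMI of Col1a1, Col3a1 or Slc6a13 in 23.5% of nuclei. Just outside it, 813 nuclei with 3 UMIs had a median of 3800, and 13.4% had a UMI of those 3 genes.

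The libraries came from female mice aged 9 months, 1 mouse each, in 4 groups of 4. Per the labels, the Ch25h+/+ mice fell into a Tau- and a Tau+ group, and so did the mice labelled Ch25h-/-. Ch25h encodes cholesterol 25-hydroxylase, which makes 25-hydroxycholesterol. The labels do not say which tau line, promoter or deleted part of Ch25h was used, give no batch, and number no replicates, so replicates are numbered here in the order of the deposited samples. The design asks what tau does with and without Ch25h. Libraries held 8130 to 11654 nuclei with 45502856 to 73458596 UMIs, and 1 barcode was shared by members of different libraries. In every group replicates 1 and 2 stood apart from 3 and 4, with 86.1 to 87.8% against 88.3 to 90.5% of UMIs in nuclei. The labels give no source for this split.

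The targeted gene did not check the genotype labels. In nuclei that were not fibroblasts, Ch25h had 46 UMIs in the Ch25h+/+ Tau- group, 97 in Ch25h+/+ Tau+, 87 in the group labelled Ch25h-/- Tau- and 104 in the group labelled Ch25h-/- Tau+. Among fibroblast nuclei led by their own transcripts (defined below) it had 0, 5, 2 and 3 UMIs in the same order. Transcripts of Ch25h were thus no rarer in the groups labelled knockout, and every direction below that involves Ch25h rests on the labels. A long noncoding gene, Gm43049 (chr3:140692038-140760704, GRCm38), separated the tau groups in the other nuclei, with 16893 and 17896 UMIs in the Tau+ groups and 9 and 19 in the Tau- groups.

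Background. The meninges are layered. An outer dura lies over the arachnoid, whose barrier cells seal the fluid space with tight junctions and transporters, and the innermost pia follows the brain surface and continues along entering vessels as perivascular fibroblasts. These cells secrete fibrillar collagens and basement membrane proteins, make retinoic acid, carry organic anions and amino acids, and supply prostaglandin D synthase to the cerebrospinal fluid. A hippocampal dissection takes only the meninges that cling to its surface and line its fissure.

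Members were then set against marker lists of other classes. This is not an independent check of the label. It uses the 5 chosen genes, and several lists hold genes that the rule keeps at no more than 1 UMI. Over all 3315 members, 2506 (75.6%) had more UMIs from the 5 chosen genes than from each marker list of another class, and these are called fibroblast-led nuclei. They numbered 29 to 316 per library, with 51670 to 727155 UMIs per library, and held 48.7% of the members' UMIs. The other 809 members had at least as many UMIs from a list of another class, so the label was not borne out for them. Ties are included and were not counted. By the list with the most UMIs, 470 were led by neuron markers, with a median of 9387.5 UMIs, Dcn at 439 UMIs per 1000000 (CPM) and Bnc2 at 78.3 CPM. A further 179 were led by astrocyte markers, with Ranbp3l at 1046 CPM, and 126 by mural (pericyte and smooth muscle) markers, with Slc6a20a at 3694 CPM. The share of fibroblast-led nuclei among members was 58.7 ± 16.5% (SD over 4 libraries) for Ch25h+/+ Tau-, 79.7 ± 6.68% for Ch25h+/+ Tau+, 72.9 ± 13.4% in the group labelled Ch25h-/- Tau- and 72.8 ± 10.7% in the group labelled Ch25h-/- Tau+. Because this share was lowest in 1 group, results are given for all members and for the fibroblast-led nuclei, a subset defined after the values were seen.

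The fibroblast-led nuclei were marked by transcription factors, matrix genes and transporters. Among genes with a UMI in at least 20% of these nuclei, those with the largest ratios over all other nuclei included Bnc2, a zinc finger factor that was one of the chosen genes (1495 ± 496 CPM, SD over 16 libraries, 506 times the level in other nuclei). Slc6a13, a GABA transporter not used to choose nuclei, stood at 739.8 ± 133.8 CPM, a ratio of 433. Aldh1a2, which makes retinoic acid, stood at 301 ± 96.8 CPM with a ratio of 377. The factors Foxd1 (263 ± 135 CPM, ratio 354) and Tbx18 (171 ± 24.1 CPM, ratio 322) were also among them. Both factors were present in mural nuclei too, at 86.9 and 82.0 CPM.

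The organic anion transporters Slc22a6 (143 ± 33.3 CPM, ratio 353) and Slc22a8 (320 ± 68.4 CPM, ratio 228) were in the same set, and Slc22a8 also stood at 144 CPM in mural and 198 CPM in endothelial nuclei. Basement membrane genes were Lama1, a laminin chain (644 ± 215 CPM, ratio 239), and Nid1, a nidogen (130.3 ± 35.0 CPM, ratio 193), which stood at 139 CPM in mural nuclei. Bmp5, a secreted growth factor, stood at 259 ± 36.5 CPM against 132 CPM in mural nuclei, and Cdh5, a cadherin best known from endothelium, at 131 ± 24.8 CPM against 201 CPM in endothelial nuclei. Ptgds, prostaglandin D synthase, stood at 9056 ± 5576 CPM with a ratio of 73.6. Fibrillar collagens were lower, with Col1a2 at 318 ± 99.8, Col1a1 at 108 ± 41.8 and Col3a1 at 82.8 ± 33.9 CPM. Cyp7b1, which hydroxylates 25-hydroxycholesterol, stood at 161 ± 51.5 CPM, 1.19 times the level in other nuclei, so it did not mark these nuclei. These values are in CPM of UMIs from the 3' ends of transcripts and are not divided by gene length.

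The fibroblast-led nuclei formed 12 clusters, which describe their variety and were not tested. Cluster 3 (317 nuclei) was pial/perivascular-like, with 4 of 4 fixed markers at 2 or more times the level in the other fibroblast-led nuclei. It led with Eln (elastin, 498 against 42.4 CPM), Ltbp1, Jag1, Lum and Dcn (1515 against 354 CPM). Cluster 9 (136 nuclei) was also pial/perivascular-like by 3 of 4 markers, and led with Nr1h4 (the bile acid receptor FXR, 368 against 31.4 CPM), Gatm and the basement membrane collagen Col4a1 (348 against 40.0 CPM). Cluster 1 (329 nuclei) was inner-arachnoid-like by 3 of 4 markers, and led with Cyp26b1, which degrades retinoic acid (186 CPM). The summed level of these markers was 847 CPM there and 2474 CPM in cluster 7, where 1 of them was at 2 or more times the level elsewhere. Cluster 1 also had the endothelial marker list at 273 CPM, with 2 markers at 2 or more times the level elsewhere. Cluster 10 (84 nuclei) was arachnoid-barrier-like by 4 of 6 markers, and led with Cubn, an endocytic receptor (618 against 9.07 CPM), and Dpp4, a peptidase (954 against 33.5 CPM).

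The other clusters kept no name. Cluster 2, with 516 nuclei, had among its leading genes Notum, Lef1 and Apcdd1, which act in or respond to Wnt signalling. Cluster 7 (426 nuclei) had Bnc2 at 3938 CPM and Col1a2 at 214 CPM, with little of the other chosen genes (Ranbp3l at 19.7, Dcn at 19.7 and Slc6a20a at 8.06 CPM). It led with the transporters Slc47a1 (2456 against 57.2 CPM), Slc47a2 and Slc26a7 and with Adamtsl3, and had markers of dura (4 of 4), of the arachnoid barrier (3 of 6) and of the inner arachnoid (1 of 4) together. Cluster 12 (137 nuclei) had among its leading genes Emcn, Itga8 and Hpgd, which inactivates prostaglandins (376 against 4.08 CPM). Clusters 6 and 8 held 279 and 205 nuclei, the first led by A2m, Kcnd3 and Il31ra and the second by Rspo2, Ppp1r1a and Atp13a5. Cluster 8 had 3 mural and 4 endothelial markers at 2 or more times the level in the other fibroblast-led nuclei, with summed levels of 773.5 and 158 CPM. Cluster 5 (26 nuclei) carried neuron and astrocyte markers and cluster 11 (18 nuclei, median 886 UMIs) carried mural markers.

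**Figure D1:**
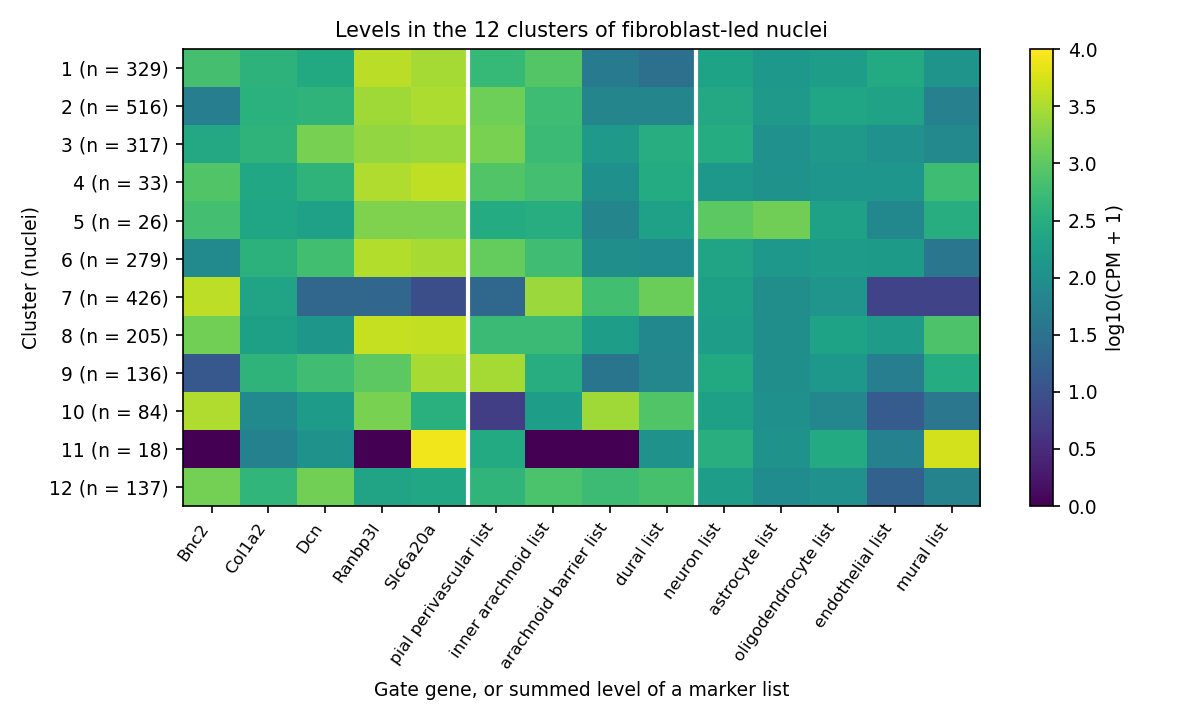
Levels (colour, log10 of CPM + 1) of the 5 chosen genes and summed marker lists (columns) in the 12 clusters (rows) of 2506 fibroblast-led nuclei. Cluster 7 carries Bnc2 with little Ranbp3l, Slc6a20a or Dcn, and cluster 3 has Dcn at 1515 CPM.

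Cluster 4, with 33 nuclei, led with genes that interferons induce. It held 14 nuclei (42.4%) of replicate 1 of the group labelled Ch25h-/- Tau+, 5 of replicate 2 of the same group, 5 of replicate 1 of Ch25h+/+ Tau+ and 0 to 2 of each other library. Isg15, a ubiquitin-like modifier, stood at 324 CPM against 6.26 in the other fibroblast-led nuclei, Rsad2 (viperin, an antiviral enzyme) at 262 against 4.97, Ifit3 (an RNA-binding antiviral protein) at 598 against 21.4, and Ifi44 at 262 against 2.95. Ifit3 and its near-identical neighbour Ifit3b may exchange reads. The mural marker list stood at 573 CPM in this cluster, with 1 marker at 2 or more times the level elsewhere. Promoters of its leading genes are shown because Isg15, Rsad2 and Ifit3 lead this cluster and belong to the list of interferon-stimulated genes described below. Of the 10 leading genes 7 were in RefSeq's promoter table (GRCm38.p6), and 5 had the letters GAAANNGAAA, on either strand, in the 300 bases around the start. That is the core spacing of an interferon-stimulated response element. The letters were in 3.44% of all 32851 promoters of that length. Matches are a description, and Ifi44 and Irf7 had none in this window. The 250 bases before the start of 3 of these genes follow, from 5′ to 3′ on the gene's strand, with matches in capitals (overlapping in Isg15). They lie at chr4:156200819-156201068 (minus strand) for Isg15, chr12:26456453-26456702 (minus strand) for Rsad2 and chr19:34583279-34583528 (plus strand) for Ifit3.
Isg15: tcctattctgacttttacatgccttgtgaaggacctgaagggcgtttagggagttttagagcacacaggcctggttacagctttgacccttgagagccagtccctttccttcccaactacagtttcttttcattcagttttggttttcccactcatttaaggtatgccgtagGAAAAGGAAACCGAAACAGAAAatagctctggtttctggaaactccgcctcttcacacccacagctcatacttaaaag
Rsad2: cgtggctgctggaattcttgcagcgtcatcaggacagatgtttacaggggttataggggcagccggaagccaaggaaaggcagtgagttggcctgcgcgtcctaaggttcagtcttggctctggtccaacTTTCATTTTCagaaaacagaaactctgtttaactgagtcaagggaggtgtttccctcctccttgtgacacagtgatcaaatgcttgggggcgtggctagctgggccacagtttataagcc
Ifit3: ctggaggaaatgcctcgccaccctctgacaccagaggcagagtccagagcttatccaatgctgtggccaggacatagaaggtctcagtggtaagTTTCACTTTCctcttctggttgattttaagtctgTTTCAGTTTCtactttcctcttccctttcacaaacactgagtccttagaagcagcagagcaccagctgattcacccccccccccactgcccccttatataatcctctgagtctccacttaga

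The share of fibroblasts among nuclei varied between libraries of the same group, most in the Tau- groups. Among all nuclei, members made up 0.639, 0.944, 3.20 and 1.28% in replicates 1 to 4 of Ch25h+/+ Tau-, and 3.80, 2.03, 3.49 and 1.85% in Ch25h+/+ Tau+. They made up 3.13, 0.514, 4.33 and 4.51% in the group labelled Ch25h-/- Tau- and 2.42, 1.92, 1.05 and 1.12% in the group labelled Ch25h-/- Tau+. All 4 groups overlapped. Tau+ minus Tau- was 1.27 percentage points in Ch25h+/+ (exact permutation test, two-sided, p = 0.143, adjusted p = 0.343 over 6 comparisons) and -1.49 points in the groups labelled Ch25h-/- (exact permutation p = 0.171, adjusted p = 0.343). In fibroblast-led nuclei these differences were 1.29 points (exact permutation p = 0.0857, adjusted p = 0.3) and -1.18 points (exact permutation p = 0.2, adjusted p = 0.3). The smallest p that 4 against 4 allows is 0.0286. None of the 6 comparisons passed in either set of nuclei. The difference in the groups labelled Ch25h-/- changed sign with the libraries used, at 0.348 points in replicates 1 and 2 and -3.34 points in replicates 3 and 4 (0.32 and -2.69 points in fibroblast-led nuclei).

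**Figure D2:**
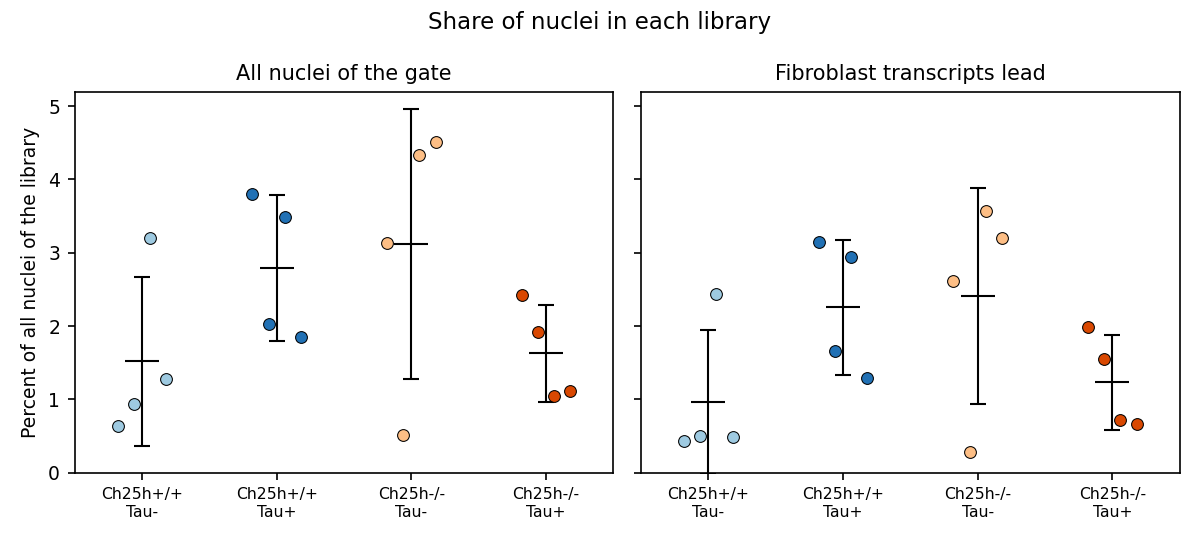
Percent of nuclei in each of the 16 libraries (points, 4 per group) that were members by the rule and that were fibroblast-led, with lines for group means and bars for SD. Libraries of every group overlap, and members run from 0.514 to 4.51%.

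Summed counts of each library were tested gene by gene with edgeR's quasi-likelihood test and Benjamini-Hochberg adjustment. For tau over both genotypes, 0 of 7566 genes (0.0%) passed an adjusted p of 0.05 in fibroblast-led nuclei, with 413 (5.46%) at an unadjusted p under 0.05. In all members 0 of 10155 (0.0%) passed, with 995 (9.8%) at an unadjusted p under 0.05. The counts were also 0 (0.0%) in both sets for the other 6 comparisons. At an unadjusted p under 0.05, fibroblast-led nuclei had 6.29% of genes for tau in Ch25h+/+, 4.93% for tau in the groups labelled Ch25h-/- and 5.89% for the difference between these tau effects. All members had 12.9, 2.79 and 4.46% for the same comparisons. For the Ch25h label the shares in fibroblast-led nuclei were 2.96% over both tau states, 4.2% in Tau+ and 4.47% in Tau-, and 1.86, 2.15 and 3.8% in all members. DESeq2 called 0 genes in fibroblast-led nuclei in each of the 7 comparisons. In all members it called 1 for tau over both genotypes (0.00985%), 2 for tau in Ch25h+/+ (0.0197%), 1 for tau in the groups labelled Ch25h-/- (0.00985%) and 0 in the other 4. On simulated counts with these depths edgeR recovered 95.8% of 4-fold and 23.9% of 2-fold changes in fibroblast-led nuclei. The simulated spread between libraries was fixed above the dispersion of 0.0385 that edgeR fitted to these nuclei. These shares therefore do not measure what the real libraries can show. The genes below had the smallest p or belong to the fixed lists, and their values are given as differences that did not pass. The share of all genes whose groups did not overlap was not counted, so the separation of a named gene has no such background. Replicates 1, 2 and 4 of Ch25h+/+ Tau- held only 37, 59 and 45 fibroblast-led nuclei, with 79421, 100371 and 84071 UMIs. Low levels in these libraries rest on few molecules. Levels of genes and lists in members and fibroblast-led nuclei are from here on CPM scaled by edgeR's normalization factors, except in the comparison with other nuclei at the end. Levels in free RNA and in other nuclei are plain CPM.

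Rcan2 (ENSMUSG00000039601, chr17:43801351-44039516), an inhibitor of the phosphatase calcineurin, came closest in fibroblast-led nuclei. It stood at 135, 152, 182 and 115 CPM in replicates 1 to 4 of Ch25h+/+ Tau- and at 307, 220.0, 229 and 238 CPM in Ch25h+/+ Tau+. It stood at 325, 159, 361 and 256 CPM in the group labelled Ch25h-/- Tau- and at 122, 175, 137 and 174 CPM in the group labelled Ch25h-/- Tau+. Every Ch25h+/+ Tau+ library lay above every Ch25h+/+ Tau- library, while in the groups labelled knockout 3 of 4 Tau- libraries lay above every Tau+ library. The log2 difference of the tau effect, labelled Ch25h-/- minus Ch25h+/+, was -1.69 ± 0.31 (SE, edgeR adjusted p = 0.0515). Under 25 alternative fits of fibroblast-led nuclei the difference kept its sign, at -1.89 to -1.54 on the log2 scale, and 5 of them passed (adjusted p from 0.000107 to 0.288). It passed when the split of replicates 1 and 2 against 3 and 4 was added to the fit (edgeR adjusted p = 0.0308), and it was least clear without replicate 1 of Ch25h+/+ Tau+ (edgeR adjusted p = 0.288). The tau difference itself was 0.69 ± 0.23 in Ch25h+/+ and -0.9956 ± 0.21 in the groups labelled Ch25h-/- (edgeR adjusted p = 0.569 and 0.409). In all members, Rcan2 was not among the 5 genes of smallest p in either direction for the difference of the tau effect. Each of those genes had an edgeR adjusted p of 0.937. The share of cluster 6 was also high in some libraries of the same groups, at 16.1, 6.33, 16.6 and 1.77% of fibroblast-led nuclei in Ch25h+/+ Tau+ and 14.6, 3.45, 16.2 and 18.4% in the group labelled Ch25h-/- Tau-. It was 0, 0, 8.58 and 2.22% in Ch25h+/+ Tau- and 2.97, 7.94, 0 and 1.79% in the group labelled Ch25h-/- Tau+. Its part in the levels of Rcan2 and Wnt6 was not tested. In all members Gm43049 came closest for tau over both genotypes (edgeR adjusted p = 0.0515), with 8 to 34 UMIs in each of the 8 Tau+ libraries and 0 in each of the 8 Tau- libraries.

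Wnt6, a secreted Wnt ligand, was also higher in Ch25h+/+ Tau+ and in the group labelled Ch25h-/- Tau- than in the other 2 groups by their means. Its levels were 13.5, 10.8, 25.2 and 25.6 CPM in Ch25h+/+ Tau-, 76.4, 61.6, 61.5 and 49.2 CPM in Ch25h+/+ Tau+, 55.5, 39.8, 76.0 and 48.7 CPM in the group labelled Ch25h-/- Tau- and 43.8, 26.4, 22.8 and 20.5 CPM in the group labelled Ch25h-/- Tau+. The Ch25h+/+ groups did not overlap, with every Tau+ library above every Tau- library. The log2 difference was 1.57 ± 0.39 for tau in Ch25h+/+ (edgeR adjusted p = 0.361) and -2.44 ± 0.50 between genotypes (edgeR adjusted p = 0.118). These levels rest on few molecules, with 13 Wnt6 UMIs over the 4 Ch25h+/+ Tau- libraries.

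Ccn2, a matricellular protein and target of YAP and TGF-beta signalling, had its highest group mean in Ch25h+/+ Tau+, at 127, 85.1, 108 and 41.0 CPM. Its lowest group mean was in the group labelled Ch25h-/- Tau+, at 39.8, 23.1, 15.2 and 10.2 CPM. The Tau- libraries lay between 32.5 and 85.2 CPM and overlapped both. The 2 Tau+ groups did not overlap, though only narrowly, with a log2 difference of -1.77 ± 0.37 for labelled Ch25h-/- minus Ch25h+/+ (edgeR adjusted p = 0.295). In all members these 2 groups overlapped, at a log2 difference of -1.96 ± 0.59. Replicates 3 and 4 of the group labelled Ch25h-/- Tau+ had 145920 and 109550 UMIs in fibroblast-led nuclei, so their Ccn2 levels rest on few molecules. Kitl, the ligand of the receptor Kit, went the other way in the same comparison. It stood at 19.1, 14.7, 14.9 and 12.3 CPM in Ch25h+/+ Tau+ and 43.8, 59.5, 75.8 and 51.2 CPM in the group labelled Ch25h-/- Tau+, with a log2 difference of 1.78 ± 0.40 (edgeR adjusted p = 0.43). The Tau- libraries spanned 10.8 to 67.2 CPM and overlapped both groups. Low Kitl levels also rest on few molecules, as in replicate 4 of Ch25h+/+ Tau+, with 260725 UMIs over all genes.

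Oasl2 (ENSMUSG00000029561, chr5:114896936-114912234), which interferons induce, was highest in the group labelled Ch25h-/- Tau+, at 163, 165, 68.3 and 143 CPM. It stood at 74.0, 79.5, 62.8 and 46.7 CPM in the group labelled Ch25h-/- Tau-, at 90.7, 90.9, 63.3 and 53.3 CPM in Ch25h+/+ Tau+ and at 40.3, 54.2, 67.1 and 51.2 CPM in Ch25h+/+ Tau-. Replicate 3 of the highest group lay inside the range of all others, and the other 3 lay above every other library. The log2 difference for tau was 1.18 ± 0.26 in the groups labelled Ch25h-/- (edgeR adjusted p = 0.409) and 0.79 ± 0.21 over both genotypes (edgeR adjusted p = 0.528).

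Hpgd, which led cluster 12, stood at 47.8, 103, 15.2 and 102 CPM in the group labelled Ch25h-/- Tau+ and at 6.17, 0, 7.31 and 8.12 CPM in the group labelled Ch25h-/- Tau-. These groups did not overlap, with a log2 difference of 3.18 ± 0.72 (edgeR adjusted p = 0.488). This separation rests on few molecules. The 0 CPM came from replicate 2 of the group labelled Ch25h-/- Tau-, with 51670 UMIs over all genes. The 15.2 CPM came from replicate 3 of the group labelled Ch25h-/- Tau+, with 145920 UMIs. The Ch25h+/+ groups overlapped each other, at 19.6 to 86.8 CPM in Tau- and 5.87 to 63.3 CPM in Tau+. Nuclei of cluster 12 numbered 19, 20, 2 and 2 in the group labelled Ch25h-/- Tau+ and 9, 0, 6 and 8 in the group labelled Ch25h-/- Tau-, from 202, 126, 64 and 56 against 219, 29, 297 and 305 fibroblast-led nuclei. The part of this cluster in the level of Hpgd was not tested.

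**Figure D3:**
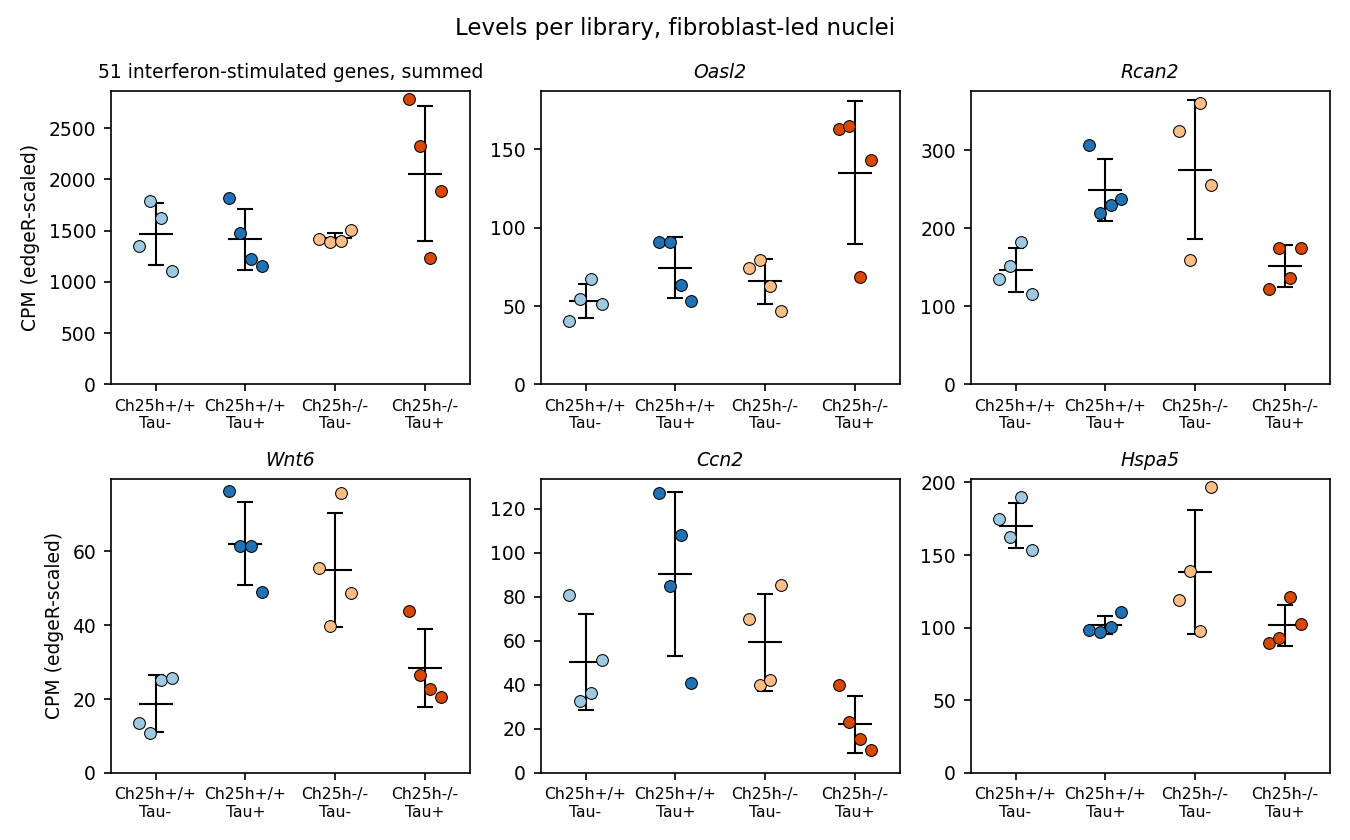
Summed level of the 51 interferon-stimulated genes and levels of 5 genes (both edgeR-scaled CPM) in fibroblast-led nuclei of each of the 16 libraries (points), with group means and SD (lines and bars). Rcan2 and Wnt6 are high in Ch25h+/+ Tau+ and in the group labelled Ch25h-/- Tau-, and none of the differences passed the test over all genes.

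Over both genotypes the smallest p for tau belonged to the ribosomal protein genes Rplp1 and Rps4x, followed by Mcph1, a gene of chromosome condensation, at a log2 difference of -0.80 ± 0.19 (edgeR adjusted p = 0.528). Rplp1 stood at 53.8, 97.6, 227 and 76.8 CPM in Ch25h+/+ Tau-, at 60.5, 67.5, 61.5 and 53.3 CPM in Ch25h+/+ Tau+, at 84.3, 39.8, 89.1 and 124 CPM in the group labelled Ch25h-/- Tau- and at 33.9, 39.7, 68.3 and 20.5 CPM in the group labelled Ch25h-/- Tau+. Its log2 difference was -1.22 ± 0.24 (edgeR adjusted p = 0.142), and that of Rps4x was -1.47 ± 0.32 (edgeR adjusted p = 0.29). Ribosomal protein genes have many near-identical pseudogenes, so their counts are uncertain. Free RNA, taken from barcodes under 100 UMIs, carried Rplp1 at 318 CPM in Tau+ and 432 CPM in Tau- libraries, above the group means in fibroblast-led nuclei, and its part in the difference was not tested. The median mitochondrial share of fibroblast-led nuclei also moved with tau. It was 0.0962 to 0.73% of UMIs in the 8 Tau- libraries and 0.0465 to 0.118% in the 8 Tau+ libraries, highest in replicate 3 of Ch25h+/+ Tau-, which also had the highest Rplp1. Its part in the differences of Rplp1, Rps4x and Hspa5 was not tested.

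Hspa5, the main chaperone of the endoplasmic reticulum, lay at 175, 163, 190.2 and 154 CPM in Ch25h+/+ Tau- and at 98.7, 96.8, 101 and 111 CPM in Ch25h+/+ Tau+. In the groups labelled Ch25h-/- it lay at 119, 139, 97.9 and 197 CPM in Tau- and 89.6, 92.5, 121 and 102 CPM in Tau+. The Ch25h+/+ groups did not overlap and the others did. The log2 difference over both genotypes was -0.63 ± 0.16 (edgeR adjusted p = 0.528), and that of Hsp90b1, a chaperone of the same compartment, was -0.62 ± 0.17 (edgeR adjusted p = 0.528). In the other direction stood Ccdc136, at 0.96 ± 0.25 (edgeR adjusted p = 0.528). It had 0 to 40.3 CPM in Ch25h+/+ Tau- and 71.6 to 127 CPM in Ch25h+/+ Tau+, which did not overlap, and 54.8 to 80.4 and 45.5 to 123 CPM in the groups labelled Ch25h-/- Tau- and Tau+, which did. Free RNA held Hspa5 at 258 CPM in Tau+ and 385 CPM in Tau- libraries, a difference of the same sign, whose part was not tested.

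Further genes are given for their roles. Igf1, a growth factor, had a log2 tau difference of -1.84 ± 0.49 in the groups labelled Ch25h-/- (edgeR adjusted p = 0.572), with 0 to 29.9 CPM in Tau+ and 0 to 104 CPM in Tau-, which overlapped. Mgp, a mineralization inhibitor of the dural list, was at 170.1 to 239 CPM in Ch25h+/+ Tau+ and 282 to 609.9 CPM in Ch25h+/+ Tau-, which did not overlap, with a log2 difference of -1.08 ± 0.28 (edgeR adjusted p = 0.49). The summed dural list, which includes Mgp and so is not a separate result, did not overlap there. It stood at 258 to 373 CPM in Tau+ and 499 to 747 CPM in Tau-. In all members the dural list did overlap in Ch25h+/+, at 145.7 to 242.7 CPM in Tau+ and 115.8 to 366.6 CPM in Tau-. In fibroblast-led nuclei of the groups labelled Ch25h-/- it overlapped, at 358 to 500.5 CPM in Tau+ and 99.4 to 666 CPM in Tau-. Il33, an alarmin cytokine, had a log2 difference over both genotypes of 1.12 ± 0.45 (edgeR adjusted p = 0.799). Dpp4 stood at 0.72 ± 0.26 in the same comparison (edgeR adjusted p = 0.778) and Ptgds at -0.59 ± 0.35 (edgeR adjusted p = 0.916). The arachnoid barrier list had mean summed levels of 384 CPM in Tau+ and 332 CPM in Tau- of Ch25h+/+. In the groups labelled Ch25h-/- these were 396 and 282 CPM, and the tau groups overlapped in both genotypes. Cluster 7 held 9.87 to 32.2% of fibroblast-led nuclei in Ch25h+/+ Tau- and 10.9 to 15.8% in Ch25h+/+ Tau+. In the groups labelled Ch25h-/- it held 12.1 to 31.0% in Tau- and 15.1 to 37.5% in Tau+. Its part in these differences was not tested. For the Ch25h label over both tau states Kitl had a log2 difference of 1.18 ± 0.31 (edgeR adjusted p = 1).

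Gene lists were described by counts and medians. Over both genotypes, 52.8% of the 7566 genes tested in fibroblast-led nuclei had a log2 tau difference above 0, with a median of 0.01. None of the list members below passed the test (0.0% of all genes). Of 24 collagens tested, 14 lay above 0 with a median of 0.08. Of 29 matrix glycoproteins and proteoglycans, 8 lay above 0 with a median of -0.17. Of 32 meningeal transporters 7 lay above 0 with a median of -0.10, and of 24 meningeal transcription factors 16 lay above 0 with a median of 0.09. Among 19 sterol, oxysterol and LXR genes 5 lay above 0 with a median of -0.12. At an unadjusted p under 0.05 stood 0 sterol genes, 1 collagen, 1 transporter and 1 transcription factor, each higher, and 4 matrix glycoproteins, each lower, beside 5.46% of all genes in either direction.

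All members gave another picture of the same lists. Over both genotypes 24 of 25 collagens had a tau difference above 0 with a median of 0.42, 25 of 32 matrix glycoproteins with a median of 0.30, 27 of 33 transporters with a median of 0.25 and 23 of 24 transcription factors with a median of 0.48. The median over all 10155 genes was 0.02. The 5 neuron markers tested all lay below 0 with a median of -0.48. The summed level of the neuron marker list in all members was 1657 to 4118 CPM in Ch25h+/+ Tau-, 1427 to 2114 in Ch25h+/+ Tau+, 1340 to 3276 in the group labelled Ch25h-/- Tau- and 533.9 to 4132 CPM in the group labelled Ch25h-/- Tau+. In fibroblast-led nuclei the same list stood at 134.5 to 329 CPM in all libraries. There the mural marker list, 8 genes that all had UMIs, was lower with tau, at 111 to 169.5 CPM in Ch25h+/+ Tau+ against 173.5 to 461 CPM in Ch25h+/+ Tau-, without overlap. In the groups labelled Ch25h-/- it was 71.7 to 191 CPM in Tau+ and 148 to 243.5 CPM in Tau-, with overlap. In all members the mural list overlapped in both genotypes, at 177.8 to 307.6 CPM in Ch25h+/+ Tau+ and 114.1 to 593.2 CPM in Ch25h+/+ Tau-. In the groups labelled Ch25h-/- its mean there was higher with tau, at 408.2 CPM in Tau+ and 174.9 CPM in Tau-. The direction thus depended on the choice of nuclei. The part of mural transcripts in the tau differences of genes and lists in fibroblast-led nuclei was not tested. The matrix glycoproteins and transporters thus changed sign with the choice of nuclei, and the part of neuron-led nuclei in the values of all members was not tested.

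**Figure D4:**
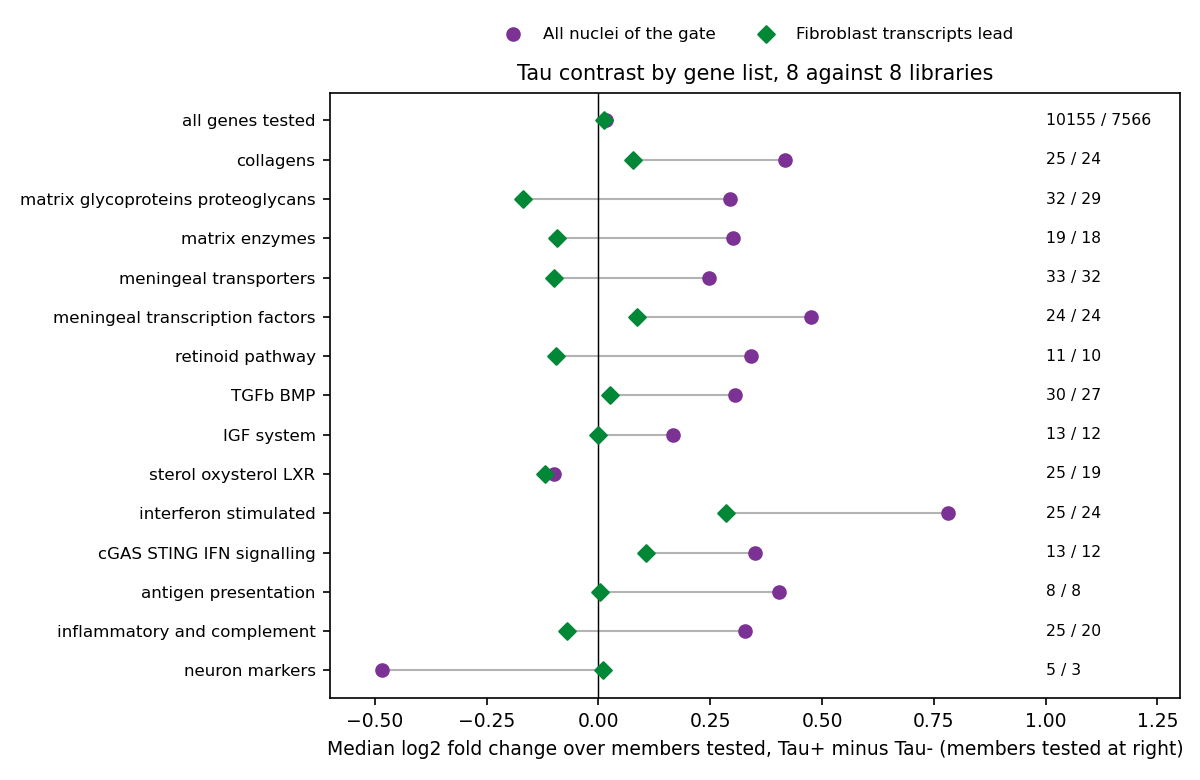
Median log2 tau difference over both genotypes (horizontal axis, 8 against 8 libraries) of each gene list in all members (circles) and in fibroblast-led nuclei (diamonds), with the median over all genes tested at the top and the numbers tested at right. The collagens lie at 0.42 in all members and 0.08 in fibroblast-led nuclei, and the interferon-stimulated genes at 0.78 and 0.28.

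Interferon-stimulated genes were highest in 3 libraries of the group labelled Ch25h-/- Tau+. The summed level of the list of 53 genes, 51 of them in the files, was 2783, 2323, 1236 and 1884 CPM in replicates 1 to 4 of that group. It was 1413, 1391, 1400 and 1504 CPM in the group labelled Ch25h-/- Tau-, 1814, 1475, 1218 and 1155 CPM in Ch25h+/+ Tau+ and 1345, 1789, 1620 and 1101 CPM in Ch25h+/+ Tau-. Replicate 3 lay below every library of the group labelled Ch25h-/- Tau- and the other 3 lay above every other library. Ifi44, Isg15, Rsad2, Ifit3, Ifit3b and Irf7, which are among the lead genes of cluster 4, are in this list. Of that cluster's 33 nuclei, 14, 5, 0 and 0 came from replicates 1 to 4 of this group, so replicate 4 was high in the list with none of them.

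Among the 24 list members tested in fibroblast-led nuclei, 23 had a tau difference above 0 in the groups labelled Ch25h-/-, with a median log2 difference of 0.56 and 8 members at an unadjusted p under 0.05, all higher. Over all genes the median was 0.01 and 4.93% were at an unadjusted p under 0.05. In Ch25h+/+, 13 of 24 lay above 0 and the median was 0.00. The median of the difference between genotypes was 0.64, with 20 of 24 above 0. Between the Tau+ groups, 22 of 24 lay above 0 for labelled Ch25h-/- minus Ch25h+/+, with a median of 0.60. These comparisons share libraries, so they are not independent. No member passed the adjusted test in any of them.

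The size of these medians rested on single libraries and on the split of replicates 1 and 2 against 3 and 4. Without replicate 1 of the group labelled Ch25h-/- Tau+, the median tau difference in the groups labelled Ch25h-/- was 0.36 (20 of 23 above 0), and that between the Tau+ groups was 0.28 (18 of 23). Without replicate 3 of Ch25h+/+ Tau+ the latter was 0.39 (21 of 25). With replicates 1 and 2 only, 24 of 25 members lay above 0 with a median of 0.69. With replicates 3 and 4 only, 10 of 20 lay above 0 with a median of -0.04. Members with values include Ddx58, the RNA sensor RIG-I, at 0.85 ± 0.31 for tau in the groups labelled Ch25h-/- (edgeR adjusted p = 0.952), and Rnf213 at 0.93 ± 0.34 (edgeR adjusted p = 0.952). Ifi27, an interferon-induced gene, stood at 0.01 ± 0.23 (edgeR adjusted p = 1). In all members 25 of 25 tested genes lay above 0 for tau over both genotypes, with a median of 0.78 and 16 at an unadjusted p under 0.05, beside 9.8% of all genes. There the chosen genes summed to means of 4165 CPM in Tau+ and 2687 CPM in Tau- of Ch25h+/+. In the groups labelled Ch25h-/- they summed to 3460 and 3826 CPM. The part of the mix of nuclei in this count was not tested.

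A further interferon-induced gene separated the tau groups in both genotypes. The summed list above did not do so in Ch25h+/+, at 1155 to 1814 CPM in Tau+ and 1101 to 1789 CPM in Tau-. Gbp2b, a guanylate-binding protein (chr3:142594847-142619179), was singled out after its values were seen, and had too few UMIs to be tested. In fibroblast-led nuclei it had 7, 4, 6 and 3 UMIs in Ch25h+/+ Tau+ and 13, 3, 3 and 3 in the group labelled Ch25h-/- Tau+. It had 0 UMIs in every Ch25h+/+ Tau- library and 1 in the group labelled Ch25h-/- Tau-, in replicate 1. The tau groups did not overlap. In other nuclei it had 122 and 101 UMIs in the Tau+ groups and 8 and 6 in the Tau- groups. Gbp2b lies on the same chromosome as Gm43049, which had 0, 4, 0 and 1 UMIs in fibroblast-led nuclei (Ch25h+/+ without and with tau, then labelled Ch25h-/- without and with tau), against 0, 81, 0 and 68 in all members. Nearly all Gm43049 UMIs of the members thus lay in nuclei led by markers of other classes. Gbp2b lies between Gm43049 (chr3:140692038-140760704) and Gm6260, another noncoding gene (chr3:143670892-143712210). In fibroblast-led nuclei Gm6260 had a log2 tau difference of 1.18 ± 0.28 over both genotypes (edgeR adjusted p = 0.528). The part of this chromosomal position in the tau difference of Gbp2b was not tested. Prnp, the prion protein gene, overlapped between the tau groups in fibroblast-led nuclei, with 45, 134, 134 and 73 UMIs and group means of 70.5, 80.6, 82.5 and 71.9 CPM in the same order. In other nuclei it did not overlap, at 106.3 to 152.5 CPM in the Tau+ and 61.3 to 102.3 CPM in the Tau- libraries.

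The tau difference of fibroblasts was then set against that of all other nuclei of the same libraries, with the library as a block. Levels in this comparison are plain CPM in both kinds of nuclei. In fibroblast-led nuclei 14 of 7566 genes (0.185%) differed at an adjusted p under 0.05, with 553 at an unadjusted p under 0.05; 12 had the lower and 2 the higher tau difference in fibroblasts. In all members 0 of 10155 (0.0%) differed, with 731 at an unadjusted p under 0.05. Ifit1, an interferon-induced antiviral protein, had a tau difference 2.20 ± 0.37 (SE) lower on the log2 scale in fibroblast-led than in other nuclei (edgeR adjusted p = 0.00153). Its level was 22.5 ± 17.5 CPM in Tau+ against 25.6 ± 18.6 CPM in Tau- fibroblast-led nuclei (SD, n = 8) and 6.82 ± 5.64 against 1.75 ± 0.226 CPM in other nuclei.

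The class I histocompatibility genes H2-K1 and H2-D1 were also among the genes that differed. H2-K1 stood at 51.5 CPM in Tau+ and 65.0 CPM in Tau- fibroblast-led nuclei and at 11.4 and 4.41 CPM in other nuclei (edgeR adjusted p = 0.017). H2-D1 stood at 53.6 and 56.0 CPM and at 16.2 and 6.81 CPM (edgeR adjusted p = 0.0442). Usp18, which limits interferon signalling, stood at 36.8 and 27.7 CPM and at 3.56 and 0.44 CPM (edgeR adjusted p = 0.0319). The noncoding Neat1 stood at 735.5 and 819 CPM and at 163 and 77.5 CPM, and Aspa, an oligodendrocyte enzyme that splits N-acetylaspartate, at 342 and 410.3 CPM and at 91.0 and 49.5 CPM (both edgeR adjusted p = 0.00153). In each of these 6 genes the level in fibroblasts was the higher in both tau states and the tau ratio was the larger in other nuclei. Gm29683 and Gm3764 went the other way in the tau difference (both edgeR adjusted p = 0.0362). Gm29683 stood at 483.5 CPM in Tau+ and 416.9 CPM in Tau- fibroblast-led nuclei and at 15.2 and 19.4 CPM in other nuclei. Gm3764 stood at 24.6 and 9.22 CPM and was higher in other nuclei, at 180.7 and 196.1 CPM.

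Some marker lists of other classes moved with tau in the other nuclei, and none was tested. The astrocyte and mural lists had close medians, at 591 CPM in Tau+ and 610 CPM in Tau- for astrocytes and at 21.9 and 21.3 CPM for mural cells. The choroid plexus list had medians of 380.9 CPM in Tau+ (15.2 to 588.7) and 257.8 CPM in Tau- (17.0 to 332.5). The ependymal list had medians of 76.5 CPM in Tau+ (43.6 to 111) and 49.9 CPM in Tau- (29.8 to 66.0), and the ranges of both lists overlapped. The oligodendrocyte marker list of the other nuclei stood at 1020 to 1517 CPM (median 1263) in the 8 Tau+ and 461 to 1034 CPM (median 877) in the 8 Tau- libraries, and their microglia list at 187 to 246 against 133 to 207 CPM, each with overlap. Their neuron list went the other way without overlap, at 3980 to 4335 CPM in Tau+ and 4364 to 4737 CPM in Tau- libraries. Their interferon-stimulated genes stood at 176 to 463 CPM (median 264) in Tau+ and 139 to 175 CPM (median 160) in Tau- libraries. In sums over mixed nuclei, more nuclei of a type and more RNA per nucleus cannot be told apart. The part of these shifts in the 14 genes was not tested. The genes themselves differed in how firmly they stood. Ifit1, Aspa, Neat1, Dock5 and Gm26740 passed in each of the 16 fits without 1 library, where the log2 difference of Ifit1 was -2.32 to -2.01. H2-K1 passed in 13 of the 16 fits, Usp18 in 9 and H2-D1 in 3. The count of genes rested on single libraries. It was 5, 6 and 7 genes without replicate 1, 2 or 4 of Ch25h+/+ Tau+ and 34 without replicate 3. It was 8, 24 and 9 without replicate 2, 3 or 4 of Ch25h+/+ Tau-, and 35, 5 and 7 without replicate 1, 3 or 4 of the group labelled Ch25h-/- Tau-. Without any 1 of the other 6 libraries it was 10 to 18.

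**Figure D5:**
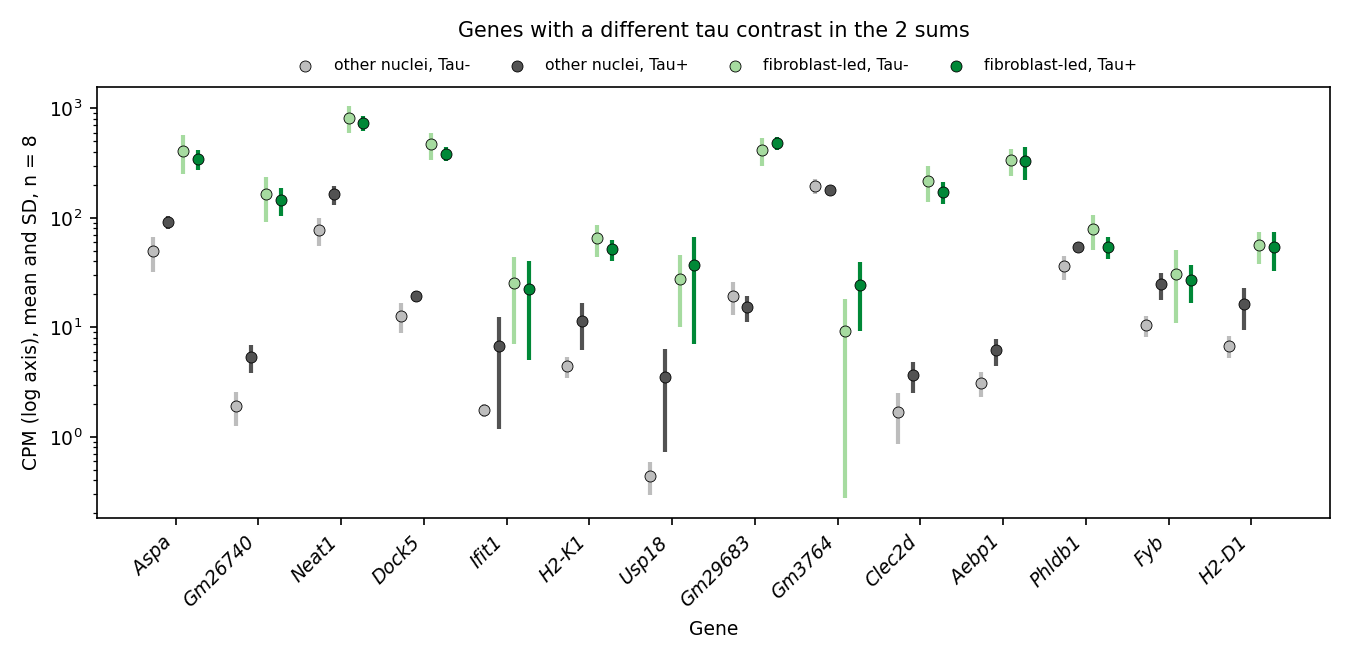
Levels (CPM, log axis, mean and SD over 8 libraries) of the 14 genes in other nuclei and in fibroblast-led nuclei, Tau- and Tau+. For Ifit1, other nuclei stand at 1.75 CPM in Tau- and 6.82 CPM in Tau+, and fibroblast-led nuclei at 25.6 and 22.5 CPM.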

How the data were processed

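Per the labels' protocols, the 16 single-nucleus libraries came from hippocampus and a 10x 3' kit (v3.1 chemistry). The deposited matrices hold UMI counts per gene and barcode, not normalized. Per the file headers they were written by Cell Ranger 4, while the submitters' processing notes name Cell Ranger 3.1.0 and the build mm10. Whether intronic reads were counted is not given in the sources used here, and counting by strand is not stated. Replicates are separate mice.

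The rule for nuclei and members is given above, with no further removal of doublets. Scrublet, at 0.8% per 1000 nuclei, marked 341 of the 3315 members, unevenly (28 of 55 in replicate 1 and 35 of 110 in replicate 2 of Ch25h+/+ Tau-, 28 of 53 in replicate 2 of the group labelled Ch25h-/- Tau-, and 9 to 36 in each other library), and leaving them out was an alternative. Counts were summed per library over all members or over fibroblast-led nuclei. edgeR 4.0.16 (R 4.3.3) fitted the 4 group means after its filter on low counts and TMM scaling, with the robust quasi-likelihood test and a threshold of 0.05 on Benjamini-Hochberg adjusted p. DESeq2 1.42.0, no filter, 1000 UMIs per nucleus, a limit of 6 UMIs of the chosen genes, each library left out and replicates 1 and 2 or 3 and 4 alone were alternatives. Tested on simulated counts, edgeR recovered 100% of 4-fold and 36.6% of 2-fold changes in all members, with a simulated spread fixed above the fitted dispersion of 0.0712. Log2 fold changes and CPM were computed here from the counts. Fibroblast-led nuclei were clustered by Leiden (scanpy 1.11.5, 2000 variable genes, 30 principal components, 15 neighbours, resolution 0.8). Shares were compared by exact permutation of mice (Python 3.11.15, scipy 1.17.1). Coordinates are from GENCODE M21 (GRCm38).

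Named genes were, in each comparison, the 5 of smallest p in each direction with a mean of at least 3 UMIs in 1 group, those of largest ratio over other nuclei, and the members of highest level in each list. The text describes the few with the clearest values. The members and the lists were chosen with earlier results of these data known, and the fibroblast-led subset after its values were seen. Intervals of single shares were not used, since mice are the replicates.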

Additional observations from a re-analysis of the deposited data

Results flagged for a closer look

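In fibroblast-led nuclei the tau difference of 14 genes differed from that of all other nuclei, by the interaction term of edgeR's quasi-likelihood test with the library as a block. The share of fibroblast-led nuclei in replicate 3 of Ch25h+/+ Tau- was 2.43%, far from 0.43, 0.506 and 0.49% in the other 3 replicates of the group. Ptgds stood at 30190 CPM (edgeR-scaled, as for the genes that follow) in the same library, against 6973 to 8566 CPM in the other 3. Hpgd stood at 86.8 CPM in replicate 2 of that group, against 19.6 to 26.9 CPM in the other 3. Gbp2b stood at 2.06 CPM in replicate 1 of the group labelled Ch25h-/- Tau-, on 1 UMI, against 0 in the other 3. Each lay apart from its group by Dixon's criterion. With 3 libraries at 0 any value above 0 in the other library meets it, so the mark on Gbp2b carries no information. Chance flags about 1 in 20 groups, and 4 of the 64 groups of 4 libraries examined were marked, Gbp2b included.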

How the results depend on the processing

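No paired analysis was possible because the labels number no replicates. Counts of genes past the threshold in all members were 1 for tau over both genotypes with DESeq2, 3 with no filter, 1 with the split of replicates 1 and 2 against 3 and 4 as a term and 1 with replicates 3 and 4 only. They were 2 with DESeq2 for tau in Ch25h+/+, and 1 each with DESeq2, no filter, the split and replicates 3 and 4 only for tau in the groups labelled Ch25h-/-. For the difference of the tau effect between genotypes the count was 1 with nuclei of few other transcripts. In fibroblast-led nuclei with no filter the counts were 12 for tau over both genotypes, 18 in Ch25h+/+, 31 in the groups labelled Ch25h-/-, 11 and 9 for the Ch25h label in Tau+ and Tau-, and 35 for the difference of the tau effect. With replicates 1 and 2 only they were 48, 24, 30, 9, 1 and 7 in that order. With replicates 3 and 4 only, they were 11 for tau in the groups labelled Ch25h-/-, 9 for the Ch25h label in Tau+ and 9 for the difference of the tau effect. Without Scrublet doublets they were 1 for tau and 2 for the Ch25h label over both states, in a fit where replicate 2 of the group labelled Ch25h-/- Tau- kept 2 fibroblast-led nuclei (0.0211% of its remaining nuclei). For the difference of the tau effect 1 gene passed with 1000 UMIs per nucleus and 1 with the split as a term. The difference from all other nuclei held 69 genes in fibroblast-led nuclei and 1 in all members with no filter.

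Leaving out each library gave, in all members, 0 to 18 genes for tau over both genotypes (18 without replicate 4 of the group labelled Ch25h-/- Tau+), 0 to 1 for the Ch25h label and 0 to 1 for tau in the groups labelled Ch25h-/-. In fibroblast-led nuclei it gave 0 to 1, 0 to 2 for tau in Ch25h+/+, 0 to 1 for the Ch25h label in each tau state and 0 to 5 for the difference of the tau effect. The difference from other nuclei held 0 to 2 genes in all members and 5 to 35 in fibroblast-led nuclei.

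The tau difference in share over both genotypes was -0.11 percentage points and turned to 0.0547 with 6 UMIs of the chosen genes (exact permutation test, adjusted p = 0.929) and to 0.0551 in fibroblast-led nuclei (exact permutation test, adjusted p = 0.929). It was 1.24 points in replicates 1 and 2 and -1.46 in replicates 3 and 4 (1.13 and -1.02 in fibroblast-led nuclei). In fibroblast-led nuclei it was -0.00991 over non-neuronal nuclei (exact permutation test, adjusted p = 0.991). Without single libraries, shares of members differed by -0.545 to 0.171 points for tau over both genotypes, -0.0114 to 0.654 for the Ch25h label, 0.938 to 1.84 and -2.36 to -1.03 for tau in Ch25h+/+ and in the groups labelled Ch25h-/-, and -1.48 to -0.829 and 1.14 to 2.47 for the Ch25h label in Tau+ and Tau-. In fibroblast-led nuclei these ranges were -0.301 to 0.2997, 0.0198 to 0.567, 0.999 to 1.78, -1.89 to -0.7995, -1.35 to -0.732 and 1.07 to 2.16. The cause of these changes was not tested. For the genes named by the rule, 1704 of 1743 values under alternatives stayed on the same side of the threshold and 39 passed it. The thinnest sums came from 6 libraries of 29 to 64 fibroblast-led nuclei.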

Other observations

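Other genes that fibroblasts secrete or keep at the vessel wall showed no difference that passed, and their levels are given as values (edgeR-scaled CPM in fibroblast-led nuclei). Spp1, osteopontin, spanned 94.1 to 435 CPM in Ch25h+/+ Tau- and 49.3 to 123 CPM in Ch25h+/+ Tau+, with 55.5 to 199 and 20.5 to 144 CPM in the groups labelled Ch25h-/- Tau- and Tau+. Col18a1, a basement membrane collagen, spanned 0 to 39.2 CPM in Ch25h+/+ Tau- and 47.7 to 61.4 CPM in Ch25h+/+ Tau+, which did not overlap, on 16 and 91 UMIs. Apoe, the lipid carrier of the brain, had group means of 858 ± 279 (SD, n = 4), 1084 ± 192, 998 ± 285 and 1021 ± 196 CPM (Ch25h+/+ without and with tau, then labelled Ch25h-/- without and with tau). Cyp7b1, which metabolizes the product of Ch25h, had group means of 132.5 ± 34.2, 182 ± 53.3, 208 ± 47.5 and 172 ± 71.3 CPM in the same order.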
